A study of Mus musculus with 6 samples.

Results

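The 9 genes described here, Ucp1, Ucp2, Ucp3, Cidea, Prdm16, Dio2, Elovl3, Ebf2 and Ppargc1a, belong to the program of heat-producing brown and beige fat, and were taken by gene symbol from the 55039 genes of a count table and an FPKM table of mouse epididymal white adipose tissue (eWAT). All 9 symbols were found, each on 1 row. The tissue came from male C57BL/6 mice 6 to 7 weeks old at the start, for which the sources used here name no engineered allele. The CAC group (cancer-associated cachexia) comprised 3 mice injected under the skin with LLC cells, a mouse lung carcinoma line, and the CONT group comprised 3 mice injected with PBS. Tissue was taken 28 days after injection. The model is 1 transplanted tumor cell line in 1 sex and 1 fat depot, and each library holds fat pad RNA of a single mouse, with all cell types of the pad mixed. The question of the comparison is which of these genes differed in the fat of cachectic mice.

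Of the 9 genes, 8 were tested and 0 were called by the main test, edgeR's quasi-likelihood test, which called 0 of all 17296 genes. Ucp1 was not tested and held between 0 and 6 reads per library. In Ucp3, and in no other member, all CAC libraries exceeded all CONT libraries, at 28.8 ± 8.23 against 16.8 ± 3.83 CPM (SD, n = 3). The groups were likewise separate, in either direction, in 22.5% of all genes tested. Elovl3, Cidea and Dio2 were highest in CAC replicate 3, and in that mouse alone reached 17.0, 3.23 and 3.19 times the level of the next highest library. Prdm16, Ebf2, Ppargc1a and Ucp2 overlapped between the groups.

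Brown and beige adipocytes burn fuel to make heat. UCP1, in the inner mitochondrial membrane, lets protons return to the matrix without making ATP, and its gene is induced when noradrenaline acts on β-adrenergic receptors and raises cAMP. The deiodinase DIO2 makes active thyroid hormone inside the cell and thereby amplifies that response. PRDM16 and EBF2 set the brown or beige identity of the cell, and PGC-1α, the product of Ppargc1a, coactivates the genes of mitochondria and of heat production. Appearance of such cells in a white depot is called browning, and epididymal fat is known as a depot that browns little. Browning of white fat has been linked to energy loss in cachexia.

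Levels between libraries are given in CPM, TMM-normalized reads scaled to a common library size (counts per 1e+06), and levels between genes in the deposited FPKM, which also divide by gene length. Total reads per library ranged from 15713794 to 20638492 in CONT and from 22829269 to 25926425 in CAC, and 3 reads, the detection floor used here, stood for 0.113 to 0.268 CPM. A member is called near the floor where at least 3 of the 6 libraries were under 1 CPM. Pooled tissue cannot tell fewer cells of a type from less RNA per cell. Some libraries stood apart. Transcripts of mitochondrial DNA made up 30.2% of reads in CONT replicate 1 (95% Wilson interval 30.1 to 30.2%, counting error only) and 3.89% to 5.04% in the others, and the summed level of 9 epididymis markers was 11776 CPM in CONT replicate 3 and 0.246 to 229 CPM elsewhere. The 10 adipocyte markers, with Adipoq, Plin1 and Cidec among them, were detected in every library and summed to 33332 to 72258 CPM in CONT and 47141 to 68333 CPM in CAC, so the adipocyte content that the tissue label implies was present in each. Lep, the leptin gene, was at 512 CPM in CAC replicate 1, at 4.0 CPM in CAC replicate 2 and at 0.415 CPM in CAC replicate 3, against 409 to 697 CPM in CONT. CAC replicates 2 and 3 thus differed from CAC replicate 1 in a main adipocyte gene.

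Of the 9 members, 8 passed edgeR's filter on low counts, and Ucp1 did not. By edgeR's quasi-likelihood test with Benjamini-Hochberg adjustment, 0 of the 8 had an adjusted p under 0.05, and the same held for 0% of all 17296 genes tested. DESeq2, which gave a p for all 9 members and for 33212 genes, called 1 member, Elovl3, and 965 genes (2.91%). Voom with sample quality weights called 0 of the 8 members and 953 of the 17296 genes (5.51%). Taking an unadjusted p under 0.05 instead, 2 of the 8 members passed, Ucp3 and Elovl3, beside 13.3% of all genes. In 1 of the 8 members, Ucp3, the groups were separate without overlap, beside 22.5% of all genes. Both counts rest on 1 or 2 genes, and nothing particular to the members is drawn from them.

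**Figure D1:**
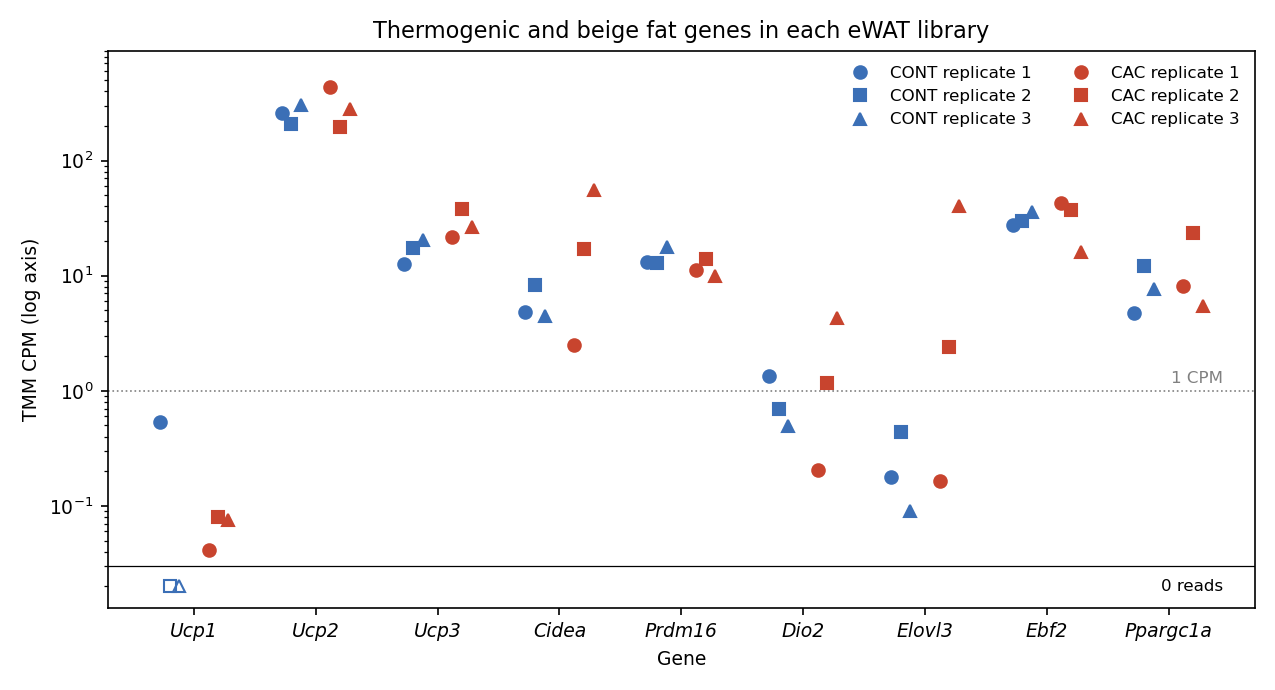
TMM CPM of each of the 9 genes on a log axis, with 1 point per library (blue CONT, red CAC, the symbol giving the replicate), open symbols below the line for libraries with 0 reads, and a dotted line at 1 CPM. Ucp1 lies under 1 CPM in all libraries, the red points of Ucp3 lie above its blue points, and CAC replicate 3 (red triangle) is the highest point of Cidea, Dio2 and Elovl3.

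Ucp1 (ENSMUSG00000031710, plus strand of chr8:83290352-83298452, GRCm38) encodes the uncoupling protein of brown and beige fat. Its reads numbered 6, 0 and 0 in CONT replicates 1 to 3 and 1, 2 and 2 in CAC replicates 1 to 3. The highest library was thus a control, at 0.54 CPM, and every CAC library was at or under the floor of 3 reads, at 0.04 to 0.08 CPM. The gene did not pass the filter of the main fit, and no fold change is given from the unfiltered fits, since nearly all its libraries were at or under the floor. No CAC library held more than 2 reads, and a fall from the CONT level was not detectable at this depth. The exact two-sided permutation test on CPM gave p = 1, where 3 against 3 cannot give a p under 0.1. A floor of 3 reads in the CAC libraries allowed a level of up to 0.113 to 0.123 CPM. No 50-base window of the Ucp1 transcripts occurs in another gene of the GENCODE M21 annotation, so reads that long would not be shared with another annotated gene.

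The study lists a primer pair for quantitative PCR of mouse Ucp1. The primers are shown, in lower case and 5′ to 3′, because they mark the mRNA that the reads would have to cover.
Ucp1 forward: attcagaggcaaatcagctttg
Ucp1 reverse: gtgtttctctccctgaagagaa
Both matched 1 of 141767 GENCODE M21 transcripts, the Ucp1 mRNA of 1636 bases in 6 exons. The forward primer lies in exon 2, at chr8:83291519-83291540, and the reverse primer crosses the junction of exons 2 and 3, between 83291582 and 83293890, which leaves an amplicon of 85 bases within the coding sequence. A transcript with the intron removed is therefore what the primer pair detects.

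The 250 bases before the RefSeq start of Ucp1 (plus strand of chr8:83290098-83290347, GRCm38.p6) are shown because cAMP is the known inducer of the gene.
Ucp1 promoter: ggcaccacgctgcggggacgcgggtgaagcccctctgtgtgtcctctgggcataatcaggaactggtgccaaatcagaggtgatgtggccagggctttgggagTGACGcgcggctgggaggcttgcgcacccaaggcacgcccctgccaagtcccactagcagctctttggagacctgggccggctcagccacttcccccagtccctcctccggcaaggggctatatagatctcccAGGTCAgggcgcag
Capitals mark matches to 4 motifs searched on both strands: the cAMP response element TGACGTCA, its shorter form TGACG (contained in the first), the nuclear receptor element AGGTCA and the TATA box TATAAA. Ucp1 held TGACG at -147 to -143 and AGGTCA at -14 to -9, counted from the start site. Among 32851 mouse promoters of this length in RefSeq, 17.8% held TGACG and 14.0% held AGGTCA, so neither match is rare. The known distal enhancer of Ucp1 lies outside this window.

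Ucp3 (ENSMUSG00000032942, plus strand of chr7:100472990-100486432) encodes a mitochondrial carrier related to UCP1, best known from skeletal muscle and brown fat and induced when fatty acids are mobilised. CONT replicates 1 to 3 held 142, 396 and 448 reads of it, and CAC replicates 1 to 3 held 532, 939 and 708. These counts correspond to 12.7, 17.3 and 20.3 CPM in CONT and to 21.8, 37.9 and 26.7 CPM in CAC. The lowest CAC library, replicate 1, lay just above the highest CONT library, replicate 3, so the groups did not overlap, by a narrow margin. The log2 fold change was 0.78 (standard error 0.29, unadjusted p = 0.0331, edgeR adjusted p = 0.339), and the exact two-sided permutation test gave p = 0.1, the smallest that 3 against 3 allow. Leaving out 1 library moved the log2 fold change between 0.55 (without CAC replicate 2) and 1.00 (without CAC replicate 1), and over all 25 alternatives the adjusted p ran from 0.0635 to 0.740. The summed level of 14 skeletal muscle markers was 45.8 to 133 CPM in CONT and 19.2 to 83.4 CPM in CAC, with Acta1 at 3.55 to 40.1 CPM over the 6 libraries. Myh4, a fast myosin heavy chain, was at 0.05 to 0.89 CPM in CONT and 2.30 to 2.98 CPM in CAC, and its part in the Ucp3 values was not tested. Gm10603, on the opposite strand, overlaps Ucp3 and held 364 reads over the libraries, or 11.5% of the Ucp3 count. The library kit named in the labels does not mark the strand, so reads of the shared stretch cannot be told apart.

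The promoter of Ucp3 (plus strand of chr7:100472741-100472990) is shown because Ucp3 was the member whose groups did not overlap.
Ucp3 promoter: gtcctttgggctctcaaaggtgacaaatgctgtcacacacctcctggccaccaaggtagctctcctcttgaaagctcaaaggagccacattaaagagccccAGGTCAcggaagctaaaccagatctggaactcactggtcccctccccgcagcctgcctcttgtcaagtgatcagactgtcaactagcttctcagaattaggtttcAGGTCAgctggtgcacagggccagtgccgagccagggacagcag
It held AGGTCA, the element bound by PPARs and thyroid hormone receptors among other nuclear receptors, at -149 to -144 and at -44 to -39, and no match to TGACG or TATAAA.

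Ucp2 (ENSMUSG00000033685, plus strand of chr7:100493337-100502020) is the neighbour of Ucp3 and encodes a carrier found in many tissues and in immune cells. Its reads numbered 2916, 4789 and 6743 in CONT and 10691, 4813 and 7502 in CAC. In CPM the CONT libraries were at 260.02, 209.8 and 305 and the CAC libraries at 439, 194 and 283. CAC held both the highest library, replicate 1, and the lowest, replicate 2. The log2 fold change was 0.24 (standard error 0.34, edgeR adjusted p = 0.792) and turned to -0.07 without CAC replicate 1. The 12 macrophage markers summed to 857 to 2309 CPM in CONT and to 971 to 1669 CPM in CAC, with CAC replicate 1 the highest of the CAC libraries in both Ucp2 and these markers. Within CONT the orders differed, since replicate 1 was the lowest in the markers and not in Ucp2. The part of macrophages in the Ucp2 level was not tested. Dnajb13 overlaps the end of Ucp2 on the opposite strand, with 2.88% as many reads.

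Per length, Ucp2 made up most of the uncoupling protein mRNA in every library. Its share of the summed FPKM of Ucp1, Ucp2 and Ucp3 was 84.4% to 89.5% in CONT and 69.6% to 90.0% in CAC. CAC replicate 2 had the lowest share, with Ucp2 at 22.6 FPKM and Ucp3 at 9.81 FPKM. The ratio of Ucp2 to Ucp3 in FPKM ran from 5.42 to 9.21 in CONT and was 9.01, 2.30 and 4.75 in CAC replicates 1 to 3. Ucp1 gave at most 0.787% of the sum, in CONT replicate 1.

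**Figure D2:**
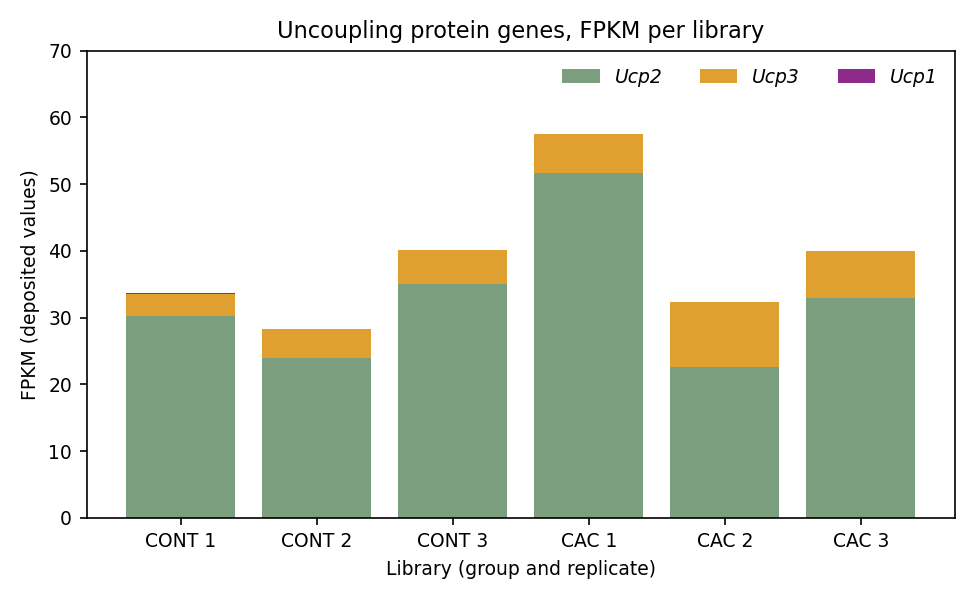
Stacked deposited FPKM of Ucp2 (green), Ucp3 (orange) and Ucp1 (purple) in each library, with 1 bar per mouse and no error bar. Ucp2 is the largest part of every bar, Ucp3 is largest in CAC replicate 2 at 9.81 FPKM, and Ucp1 is barely visible even in CONT replicate 1, where it was 0.265 FPKM.

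Dio2 (ENSMUSG00000007682, minus strand of chr12:90724552-90738438) encodes type 2 deiodinase. It was near the floor, with 15, 16 and 11 reads in CONT and 5, 29 and 113 reads in CAC. The CONT libraries were at 1.34, 0.70 and 0.50 CPM, and the CAC libraries at 0.21, 1.17 and 4.27 CPM. CAC therefore held the lowest library, replicate 1, as well as the highest, replicate 3. The log2 fold change of 1.18 (standard error 1.03, edgeR adjusted p = 0.637) became -0.26 without CAC replicate 3. Gm26512, on the opposite strand, overlaps Dio2 and held 23.3% as many reads, mostly in CONT replicate 2 (27 reads) and CAC replicate 3 (12 reads).

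Ppargc1a (ENSMUSG00000029167, minus strand of chr5:51454250-51567726) had 53, 275 and 169 reads in CONT and 200, 579 and 145 in CAC. This gave 4.73, 12.04 and 7.64 CPM in CONT and 8.21, 23.4 and 5.47 CPM in CAC. CAC replicate 2 was the highest, at 1.94 times the next library, while CAC replicate 3 lay within the CONT range. The log2 fold change of 0.60 (standard error 0.62, edgeR adjusted p = 0.704) became -0.24 without CAC replicate 2. Ppargc1a and the trio of Elovl3, Cidea and Dio2 thus peaked in different mice.

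Dio2 and Ppargc1a are, like Ucp1, known to be induced by cAMP, and their promoters (minus strand of chr12:90739039-90739288 and of chr5:51567726-51567975) are shown for comparison with that of Ucp1.
Dio2 promoter: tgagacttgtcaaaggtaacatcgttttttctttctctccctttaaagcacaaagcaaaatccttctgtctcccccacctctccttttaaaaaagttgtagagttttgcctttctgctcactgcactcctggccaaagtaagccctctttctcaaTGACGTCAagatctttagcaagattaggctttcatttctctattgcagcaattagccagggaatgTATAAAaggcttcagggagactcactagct
Ppargc1a promoter: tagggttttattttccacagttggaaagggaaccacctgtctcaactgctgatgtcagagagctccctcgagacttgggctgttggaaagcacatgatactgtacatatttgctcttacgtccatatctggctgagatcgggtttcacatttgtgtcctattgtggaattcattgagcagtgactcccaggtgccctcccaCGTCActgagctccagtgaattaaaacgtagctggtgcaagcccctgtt
Dio2 held the full element TGACGTCA at -95 to -88, which 1.55% of the 32851 promoters hold, and TATAAA at -30 to -25, which 12.4% hold. Ppargc1a held TGACG on the minus strand relative to the gene, printed as its complement CGTCA, at -49 to -45. Of the other members in the table, Ucp2 held TGACG at -62 to -58 on the minus strand and Prdm16 held no match. A match of letters is a description and says nothing of binding in these mice. Cidea, Elovl3 and Ebf2 promoters are not shown.

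Prdm16 and Ebf2, the identity factors, were expressed above the floor in every library. Prdm16 (ENSMUSG00000039410, minus strand of chr4:154316125-154636873) had 146, 297 and 391 reads in CONT and 275, 345 and 265 in CAC, or 13.02, 13.01 and 17.7 CPM against 11.3, 13.9 and 10.01 CPM. Among the members it had the narrowest spread over the CAC mice, the highest library being 1.39 times the lowest, while Ebf2 was narrower in CONT (1.31 times against 1.36 times). Its log2 fold change of -0.31 (standard error 0.26, edgeR adjusted p = 0.618) stayed between -0.44 and -0.11 over the 25 alternatives. Ebf2 (ENSMUSG00000022053, plus strand of chr14:67233292-67430918) had 309, 682 and 798 reads in CONT and 1042, 924 and 428 in CAC. In CPM these were 27.6, 29.9 and 36.1 in CONT and 42.8, 37.3 and 16.2 in CAC. CAC replicates 1 and 2 were above every CONT library and CAC replicate 3 was below every one, and the log2 fold change was 0.04 (standard error 0.37, adjusted p = 0.975). It was 0.37 without CAC replicate 3 and -0.17 without CAC replicate 1. EBF2 is also a factor of adipose progenitors, and 8 of 9 progenitor and fibroblast markers had a negative log2 fold change, with summed levels of 2290 to 2679 CPM in CONT and 1620 to 2198 CPM in CAC. CAC replicate 3 was the lowest library in both Ebf2 and this sum, and the part of these cells was not tested.

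Elovl3 (ENSMUSG00000038754, plus strand of chr19:46131897-46135307) encodes an elongase of very long-chain fatty acids that is abundant in brown fat exposed to cold. It was near the floor, with 2, 10 and 2 reads in CONT and 4, 59 and 1074 reads in CAC. The levels were 0.18, 0.44 and 0.09 CPM in CONT and 0.16, 2.38 and 40.6 CPM in CAC. CAC replicate 1 was within the CONT range, CAC replicate 2 was above it, and CAC replicate 3 held 1074 of the 1151 reads in all. The log2 fold change was 5.86 (standard error 1.96, unadjusted p = 0.0215, edgeR adjusted p = 0.305). Without CAC replicate 3 it was 2.39, with an adjusted p of 0.597. With all 6 libraries the size also depended on the method, at 3.63 with voom and 3.08 with limma on unfiltered log2(FPKM + 0.1). DESeq2 called Elovl3 at a log2 fold change of 5.95 (adjusted p = 0.00286), but not without CAC replicate 3 (2.47, adjusted p = 0.424). Its adjusted p over the 22 alternatives that could be fitted ran from 2.4e-05 to 0.753.

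Cidea (ENSMUSG00000024526, plus strand, 67343564 to 67367794 on chromosome 18) encodes a lipid droplet protein of brown and beige adipocytes. It had 54, 188 and 99 reads in CONT and 61, 425 and 1468 reads in CAC, and it was well above the floor. The levels were 4.82, 8.23 and 4.48 CPM in CONT and 2.50, 17.2 and 55.4 CPM in CAC. The lowest and the highest libraries were both CAC, replicates 1 and 3. The log2 fold change of 2.10 (standard error 0.98, edgeR adjusted p = 0.414) was 0.76 without CAC replicate 3 and 2.69 without CAC replicate 1. With all 6 libraries it was 1.40 with voom and 1.26 with limma on log2(FPKM + 0.1). DESeq2 called Cidea in 1 setting, with CAC replicate 1 left out (2.67, adjusted p = 0.0011), and its adjusted p over the 25 alternatives ran up to 0.783. B430212C06Rik overlaps the start of Cidea on the opposite strand and held 386 reads, 16.8% of the Cidea count, with 52 to 67 reads in each CAC library. It did not follow Cidea across those libraries.

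**Figure D3:**
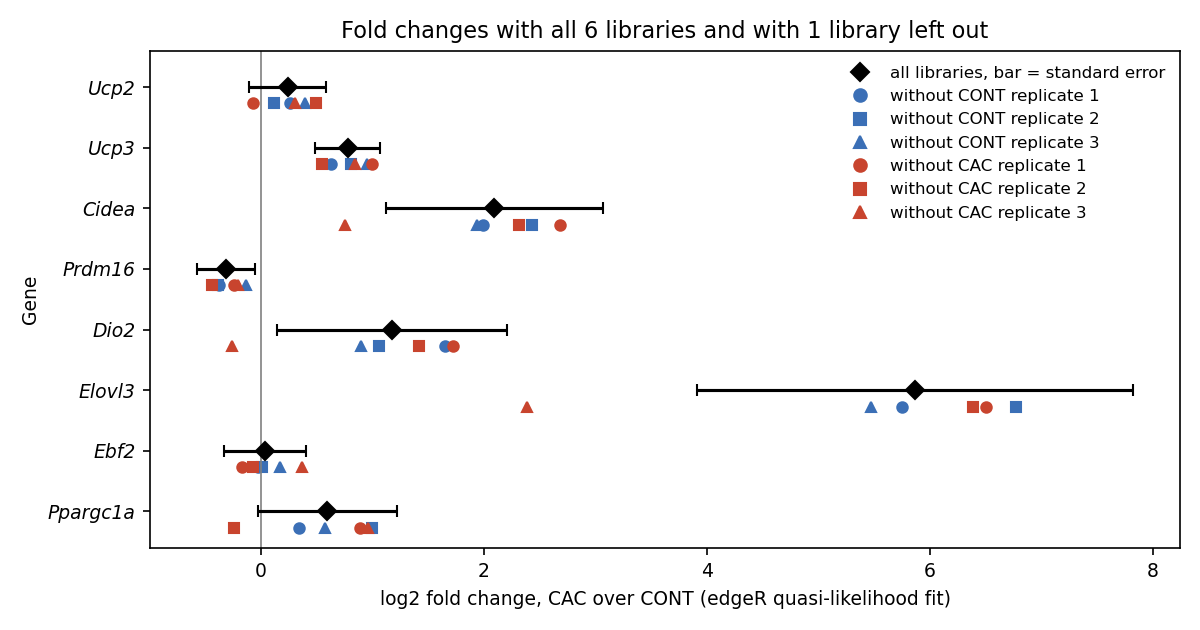
log2 fold change of CAC over CONT for the 8 members tested. Black diamonds are the edgeR fit on all 6 libraries with its standard error as the bar, and the smaller symbols under each are the fits with 1 library left out (blue a CONT library, red a CAC library). The red triangle, without CAC replicate 3, lies far to the left of the rest for Cidea, Dio2 and Elovl3, at 0.76, -0.26 and 2.39, while the symbols of Ucp3 stay between 0.55 and 1.00.

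Elovl3, Cidea and Dio2 had the same order over the CAC libraries, with replicate 3 highest and replicate 1 lowest. The highest CAC library was 247 times the lowest for Elovl3, 22.1 times for Cidea and 20.8 times for Dio2, where the median of all genes tested was 1.55. In CAC replicate 3, a lead over every other library as large as that of Elovl3 was seen in 2 of the 17296 genes, Elovl3 itself and Cyp2b10, a liver-type cytochrome P450. A lead as large as that of Cidea was seen in 59 genes and one as large as that of Dio2 in 60. Over the 6 libraries, Pearson's r of log2 CPM was 0.96 between Cidea and Elovl3, 0.89 between Cidea and Dio2 and 0.84 between Dio2 and Elovl3, given as a description. Over the 5 libraries without CAC replicate 3 these were 0.90, 0.71 and 0.50. Ebf2 went the other way in that mouse, and Prdm16 and Ppargc1a were not raised in it. Ucp1 had 2 reads there. Among other genes that led in CAC replicate 3 were Serpina3k, a serine protease inhibitor, at 447 CPM or 15.9 times the next library, and Ngp, a neutrophil granule gene, at 147 CPM or 14.2 times the next library. What these share with the trio was not tested.

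For each member above 100 reads, the other genes whose log2 CPM followed it most closely over the 6 libraries are given as a description. Elovl3 was followed most closely by Klb (r = 0.992), the co-receptor of FGF21, and by Adk (0.989), adenosine kinase. Klb was at 17.1 to 26.2 CPM in CONT and at 18.5, 55.9 and 126 CPM in CAC replicates 1 to 3. For Cidea the closest were Zbtb22 (0.998) and Clec1a (0.985), for Dio2 Sema4c (0.991) and Rogdi (0.989), and for Ucp3 Gm12663 (0.997) and Npc1 (0.991). Npc1, which exports cholesterol from lysosomes, was also highest in CAC replicate 2, at 201 CPM. The pairs were Supv3l1 (0.989) and Prps1 (0.979) for Ucp2, Phldb3 (0.989) and Dip2a (0.972) for Prdm16, Gm16984 (0.995) and Eef2k (0.981) for Ebf2, and 4930522L14Rik (0.990) and Hoxa6 (0.982) for Ppargc1a. With 6 libraries and 17288 genes to choose from, the number of genes above 0.95 ran from 8 with Ucp2 to 117 with Ucp3.

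Ordered by mean FPKM in CONT, Ucp2 came first at 29.7. Ucp3 (4.29), Cidea (4.03) and Ebf2 (3.62) followed, with ranges over the 3 mice that overlapped from one to the next. Prdm16 (1.26) and Ppargc1a (0.99) formed a lower pair with overlapping ranges. Elovl3 (0.13), Dio2 (0.12) and Ucp1 (0.09) were lowest and overlapped. In CAC, Ucp2 (35.8) was again first by mean, and Cidea (17.5), Elovl3 (7.83) and Ucp3 (7.50) came next. The neighbours from Ucp2 to Ucp3 overlapped in range. Cidea spanned 1.77 to 38.8 FPKM and Elovl3 0.09 to 22.1 FPKM over the 3 mice. In CAC replicate 3 Cidea (38.8 FPKM) was above Ucp2 (33.0 FPKM). Ebf2 (3.79), Ppargc1a (1.53) and Prdm16 (1.03) followed with overlapping neighbours, and Dio2 (0.26) and Ucp1 (0.03) were again last.

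The other genes of the program were counted from 7 lists. By edgeR's quasi-likelihood test 0 genes in any of them had an adjusted p under 0.05, so the counts below use an unadjusted p under 0.05, which 13.3% of all genes met, 1092 higher and 1202 lower in CAC. The median log2 fold change of all genes was -0.06.

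Among 20 effectors of brown and beige fat, 16 were tested, of which 3 were higher and 1 lower in CAC at that p, with a median log2 fold change of 0.32. Plin5, which couples lipid droplets to mitochondria, was at 7.22 to 11.6 CPM in CONT and at 14.5, 28.8 and 52.5 CPM in CAC replicates 1 to 3 (1.68, standard error 0.49, adjusted p = 0.275). Cox7a1, a cytochrome oxidase subunit typical of brown fat and muscle, went the other way, from 2.03 to 5.97 CPM in CONT to 0.89 to 1.43 CPM in CAC (-1.75, standard error 0.54, adjusted p = 0.285). Kcnk3, a potassium channel of thermogenic adipocytes, was at 26.04 to 46.5 CPM in CONT and at 29.7, 246 and 472 CPM in CAC (2.78, adjusted p = 0.295), which is the order of Cidea and Elovl3 over the CAC mice. Clstn3, whose locus also encodes an adipocyte form that acts at lipid droplets, was at 168 CPM in CAC replicate 3 and at 26.0 to 36.4 CPM elsewhere. Kcnk3 and Clstn3 were named after their values had been seen. Cpt1b, Otop1, Fgf21 and Bmp8b did not pass the filter, and all 4 were under 1 CPM in every library.

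**Figure D4:**
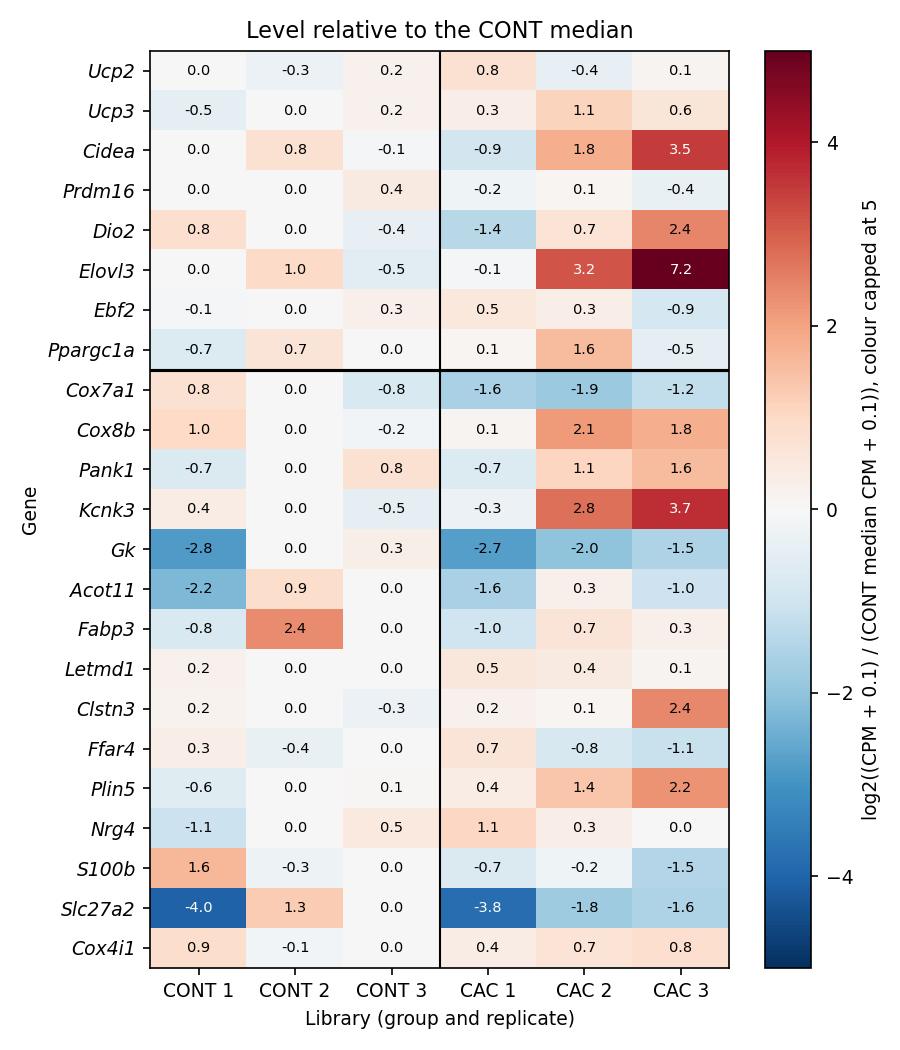
log2 ratio of each library's CPM to the median of the 3 CONT libraries, with 0.1 CPM added to both, for the 8 members tested (above the line) and tested genes of the effector list (below it). Colours are capped at 5 in either direction, and red is higher. CAC replicate 3 is red for Elovl3, Cidea, Dio2, Kcnk3, Clstn3 and Plin5, CAC replicate 1 is near 0 or blue for Elovl3, Cidea, Dio2 and Kcnk3, and Cox7a1 is blue in all CAC libraries.

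Of 21 regulators that favour browning, 19 were tested, with 4 higher and 1 lower at an unadjusted p under 0.05 and a median of 0.38. In all, 16 of the 19 had a positive log2 fold change, as did 45.9% of all genes tested. Irf4, a fasting- and cAMP-induced partner of PGC-1α in fat, was at 5.97 to 13.9 CPM in CONT and at 55.4, 1040.1 and 195 CPM in CAC (5.28, standard error 1.164, adjusted p = 0.228). Like Ppargc1a, it was highest in CAC replicate 2. Ncoa1 (0.84), a nuclear receptor coactivator, Zfp516 (0.94), an activator of Ucp1, and Gabpa (0.51) did not overlap between the groups, with adjusted p of 0.275, 0.284 and 0.290. Without overlap, 6 of the 19 lay above CONT and 0 below, beside 22.5% of all genes in either direction. Esrrg, an estrogen-related receptor, had a log2 fold change of -2.22, with CONT replicate 1 (0.62 CPM) inside the CAC range. Zic1 and Lhx8, markers of classical brown fat, held at most 1 read in each library.

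Repressors of browning numbered 12, all tested, with 2 higher, 0 lower and a median of -0.08. That median ran from -0.15 (without CAC replicate 1) to 0.021 (without CAC replicate 3), so its sign is not settled. Tle3, which opposes PRDM16, was at 86.7 to 105 CPM in CONT and 111 to 179 CPM in CAC (0.71, adjusted p = 0.311), and Ncor1, a nuclear receptor corepressor, had a log2 fold change of 0.62 (adjusted p = 0.358). Zfp423, which holds adipocytes in the white state, had one of -0.48 (adjusted p = 0.441).

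Beige, brown and white adipocyte markers numbered 12, with 11 tested, 0 higher, 2 lower and a median of -0.34. The list mixes marker classes, so that median has no single reading. The 2 lower were Eva1b (-1.17, adjusted p = 0.268) and Epsti1 (-1.15, adjusted p = 0.300). Slc36a2 (0.58, adjusted p = 0.439) and Tnfrsf9 (0.81, adjusted p = 0.519) went the other way, with all CAC libraries above all CONT libraries. Without overlap, 2 genes of the list were above CONT and 2 below, beside 22.5% of all genes. The white fat marker Hoxc8 had a log2 fold change of -1.30 (adjusted p = 0.415), with CONT replicate 1 at 379.5 CPM and the others at 60.02 to 111 CPM. The beige marker Tmem26 did not pass the filter. The median of this list was 0.18 without CONT replicate 1 and 0.20 without CAC replicate 1, so its sign rests on those libraries.

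In creatine and calcium cycling, routes of heat production that do not need UCP1, 11 of 13 genes were tested, with 1 higher and 4 lower and a median of -0.28. Ckb, the creatine kinase of thermogenic fat, was at 134 to 239 CPM in CONT and 30.8 to 77.3 CPM in CAC (-1.77, standard error 0.39, adjusted p = 0.228). Gamt, an enzyme of creatine synthesis, was at 30.1 to 50.1 CPM in CONT and 3.71 to 19.05 CPM in CAC (-2.08, adjusted p = 0.297). Pm20d1, which makes uncoupling N-acyl amino acids, had a log2 fold change of -1.60 (adjusted p = 0.339). The groups did not overlap for any of these 3. Atp2a1 (1.23, adjusted p = 0.340) and Atp2a2 (0.69, adjusted p = 0.479) went the other way, also without overlap. Of the 11 genes tested, 2 were thus above CONT and 3 below without overlap, beside 22.5% of all genes.

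Other mitochondrial carriers numbered 7, all tested, with 2 higher, 1 lower and a median of -0.22. That median ran from -0.35 (without CONT replicate 2) to 0.0070 (without CONT replicate 1), so its sign is not settled. Slc25a10, the dicarboxylate carrier, was at 279.8 to 336 CPM in CONT and at 124, 50.7 and 39.6 CPM in CAC (-2.08, standard error 0.46, adjusted p = 0.228). Slc25a30, a UCP homologue, had a log2 fold change of 1.05 (adjusted p = 0.259), and Slc25a5, an ADP/ATP carrier, one of 0.68 (adjusted p = 0.345).

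Receptors and thyroid hormone handling upstream of Ucp1 and Dio2 numbered 21, with 20 tested, 5 higher, 4 lower and a median of -0.02, which ran from -0.14 (without CAC replicate 1) to 0.17 (without CAC replicate 3) and so has no settled sign. Adrb3, the β3-adrenergic receptor of adipocytes and named after its values had been seen, was at 564 to 692 CPM in CONT and at 602, 142 and 45.1 CPM in CAC (-1.29, adjusted p = 0.529). Adrb3 was thus lowest in the CAC mouse in which Elovl3, Cidea and Dio2 were highest. Il6ra, the interleukin-6 receptor, had a log2 fold change of 1.85 (adjusted p = 0.224), and Pth1r, the receptor of parathyroid hormone-related protein, one of -0.57 (adjusted p = 0.297). The groups did not overlap for Il6ra and Pth1r. Of the 20 tested, 3 lay above CONT and 4 below without overlap, beside 22.5% of all genes.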

How the data were processed

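Per the labels, mRNA libraries were made from eWAT of 3 CONT and 3 CAC mice, 1 per mouse, and the submitters' processing notes name HISAT2 2.0.5 and featureCounts 1.5.0-p3. Whether counting used the strand is not given in the sources used here. The authors deposited raw read counts per gene on GRCm38, and FPKM values made from the same counts, gene length and a library total that was 0.879 to 1.44 times the sum of the deposited counts. The members were selected by gene symbol, and the members and lists were chosen with earlier results of these data known. Named genes are the members, the 3 of each list with the smallest p, overlapping genes and the 2 closest in pattern. Lep, Gabpa, Esrrg, Kcnk3, Clstn3, Adrb3, Slc36a2, Tnfrsf9, Atp2a1 and Atp2a2 were named after their values had been seen. So were the list genes that did not pass the filter and the genes leading in CAC replicate 3. Some genes that this rule names are not reported here.

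The main test on the counts was the robust quasi-likelihood test of edgeR 4.0.16 (R 4.3.3), after TMM and edgeR's filter by group, with Benjamini-Hochberg adjustment over 17296 genes. Alternatives were RLE and upper-quartile factors, TMM without mitochondrial-genome genes, other filters, DESeq2 1.42.0, voom with quality weights and limma 3.58.1 on log2(FPKM + 0.1) or log2(FPKM + 1), a scale that understates changes of low genes. The study used DESeq2. The scripts were tested on simulated data. Promoters came from RefSeq (GRCm38.p6), with 6 of 9 members matched, and transcripts from GENCODE M21. The labels give replicate numbers and state no pairing of the mice. The 10 adipocyte, 12 macrophage, 14 skeletal muscle, 9 epididymis and 9 progenitor markers stand beside the results they touch. Of the other lists, lymphocyte markers summed to 22.0 to 29.6 CPM in CONT and 10.4 to 17.2 CPM in CAC, endothelium to 1227 to 2177 and 1750 to 2043 CPM, and mesothelium to 212 to 268 and 95.3 to 288 CPM.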

Additional observations from a re-analysis of the deposited data

How the results depend on the processing

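Of the members, Ucp3, Cidea, Prdm16 and Elovl3 kept their direction under every alternative that could be fitted. The number of genes called, 0 with edgeR, was 1 with the replicate block, 965 with DESeq2, 953 with voom, 6 with limma on log2(FPKM + 0.1) and 5 on log2(FPKM + 1). DESeq2 with each library left out in turn, and the fit without CONT replicate 1 and CAC replicate 3, were chosen after seeing the data. The former called 2102, 623 and 888 genes with CONT replicates 1, 2 and 3 left out in turn, and 1506, 696 and 615 with CAC replicates 1, 2 and 3 left out. Of 9 members, DESeq2 called 1 (2.91% of all genes), and 0 to 2 with a library left out (1.87% to 6.24% of all genes). For Elovl3 DESeq2 gave 5.95, and in the same order of libraries left out 5.85, 6.79, 5.57, 6.53, 6.46 and 2.47. For Cidea these fits ran from 0.79 to 2.67. With all 6 libraries the replicate block gave 3.70 for Elovl3 (5.86 without it) and 1.24 for Cidea (2.10 without it). With edgeR and a library left out, 0 genes were called and 1384 to 3032 had an unadjusted p under 0.05.

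Of the members, 4 turned direction under some alternative. Ebf2 (0.04) was -0.056 with the replicate block, -0.030 with voom, -0.041 and -0.012 with limma on FPKM at the smaller and larger pseudocount and -0.041 without the FPKM filter, and ran from -0.17 to 0.37 with a library left out (-0.19 to 0.39 in DESeq2, with -0.053 without CAC replicate 2). Ucp2 (0.24) was -0.051 with voom and ran from -0.071 to 0.50 (-0.088 to 0.51 in DESeq2). Ppargc1a (0.60) ran from -0.24 to 1.00 (-0.22 to 1.01 in DESeq2) and Dio2 (1.18) from -0.26 to 1.72 (-0.25 to 1.73 in DESeq2). With a library left out, list medians ran from -0.42 to 0.20 for beige, brown and white markers, -0.78 to -0.0092 for creatine and calcium cycling, -0.35 to 0.0070 for carriers, -0.15 to 0.021 for repressors, -0.14 to 0.17 for receptors, 0.20 to 0.39 for effectors and 0.34 to 0.47 for regulators. The cause was not tested.

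Deviations of same-numbered mice from their group means correlated at r = 0.31, -0.15 and -0.22 for replicates 1, 2 and 3. The labels state no pairing, and such correlations cannot show one, so the block served only as an alternative. Depth limits Ucp1, Dio2 and, in CONT, Elovl3, whose reads numbered 16 or fewer in each CONT library. With 3 mice per group, 1 mouse weighed heavily on Elovl3, Cidea and Dio2. Without CAC replicate 3 their log2 fold changes went from 5.86 to 2.39, from 2.10 to 0.76 and from 1.18 to -0.26. Elovl3 and Cidea thus kept their direction and Dio2 did not.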
